A study of Mus musculus with 6 samples.

Results

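The polyamine genes examined here are 10 genes for the enzymes that make putrescine, spermidine and spermine, the antizyme system that controls them, and the enzymes that break polyamines down. They are Odc1, Amd1, Srm and Sms for synthesis, Oaz1, Oaz2 and Azin1 for antizyme control, and Sat1, Smox and Paox for catabolism. A gene was measured where a probe set of the array was paired with its symbol and no other, and the brightest such probe set by the mean of the 6 arrays was used. This left 6 of the 10 genes, among 19938 genes tested in all. Odc1 had 2 such probe sets, and Srm, Oaz2, Azin1, Sat1 and Smox had 1 each. Sms and Oaz1 were represented by 2 probe sets each that also name another gene, and Amd1 and Paox were matched to none, so these 4 genes are not analysed here.

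The cells were Melan-Ink4a, a line of mouse melanocytes from C57BL/6J skin with the genotype Ink4a-ARF1 null, which both groups share. One group had received 10 nM NRG1-b1, a form of the growth factor neuregulin, for 21 days, and the other was untreated, with no time stated for it. Both groups grew in medium that contained TPA, a phorbol ester, at 200 nM and cholera toxin at 200 pM, and total RNA was taken from cells at 90% confluence and hybridised to Affymetrix mouse 1.0 ST arrays, 3 per group. Values are the deposited log2 signals, a change is the NRG1 mean minus the untreated mean, and rose, fell and called are used of genes for which limma's p, adjusted over all genes tested by the Benjamini-Hochberg method, was under 0.05. Whether the arrays of a group stem from different cultures is not stated in the labels, so the p-values reflect variation among these 6 samples and part or all of it may be technical.

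Polyamines are small positively charged molecules that bind nucleic acids and are needed for translation and cell division. Ornithine decarboxylase makes putrescine from ornithine, and the spermidine and spermine synthases add aminopropyl groups donated by decarboxylated S-adenosylmethionine. Antizymes, whose translation needs a polyamine-dependent frameshift, bind ornithine decarboxylase, send it to the proteasome and reduce polyamine uptake, and antizyme inhibitor releases the enzyme. Induction of ornithine decarboxylase by TPA is a classical response of mouse skin, and Odc1 is a textbook target of the MYC transcription factor.

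All 8 melanocyte markers examined had mean levels above the highest array median of 7.19. Of these markers 7 were called lower in the NRG1 group, where 8.56% of all genes tested were. Their log2 changes were -1.53 for Gpr143, -1.09 for Mlana, -0.64 for Pmel, -0.53 for Mitf, -0.45 for Tyr, -0.26 for Tyrp1 and -0.23 for Dct. Sox10 was not called, at 0.056. The mean level of the 8 markers lay between 11.73 and 11.76 with NRG1 and between 12.32 and 12.35 without. Over all genes tested, the correlation between 2 arrays was 0.996 to 0.997 within a group and 0.981 to 0.986 between groups. None of 5 keratinocyte and 3 endothelial markers exceeded the highest array median, against 3 of 6 fibroblast, 1 of 4 immune and 1 of 2 measured Schwann cell markers. The mean level of the fibroblast markers ran from 6.71 to 6.86 with NRG1 and from 6.63 to 6.78 without. Among all these non-melanocyte markers Col1a1 rose by 0.86 and Cd68 by 0.23, and the others were not called. The fibroblast markers above the highest array median were Col1a1 (means 9.05 with NRG1 and 8.19 without), Col1a2 (8.10 and 8.37) and Col3a1 (7.33 and 7.23). The fibroblast markers Dcn, Lum and Pdgfra stayed below the array medians, at means of 4.30 to 6.44. The part of non-melanocyte cells in the values below was not tested. In a culture, a changed share of cells and a changed RNA level per cell cannot be told apart.

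The region before the transcription start was available from RefSeq (GRCm38.p6) for 4 of the 6 measured genes, and it is shown for each of them. Of these genes 3 rose (Odc1, Smox and Oaz2) and 1 fell (Sat1). The printed stretch reads 5′ to 3′ and ends before the outermost annotated start of the gene. Capitals mark GC boxes (GGGCGG on either strand), the letters bound by SP-family factors, and neighbouring matches may touch. In order, the stretches are chr12:17544623-17544807 on the plus strand for Odc1, chr2:131491612-131491857 on the plus strand for Smox, chr9:65676298-65676547 on the plus strand for Oaz2 and chrX:155216450-155216699 on the minus strand for Sat1.
Odc1: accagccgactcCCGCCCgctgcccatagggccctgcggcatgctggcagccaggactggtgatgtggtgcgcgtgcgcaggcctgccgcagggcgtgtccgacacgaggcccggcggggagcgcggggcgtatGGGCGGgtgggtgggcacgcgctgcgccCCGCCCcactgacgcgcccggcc
Smox: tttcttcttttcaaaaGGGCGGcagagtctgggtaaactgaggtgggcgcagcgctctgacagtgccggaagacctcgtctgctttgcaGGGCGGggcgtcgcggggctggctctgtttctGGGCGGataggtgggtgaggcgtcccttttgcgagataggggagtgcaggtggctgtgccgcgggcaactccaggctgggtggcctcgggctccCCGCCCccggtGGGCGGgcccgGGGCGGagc
Oaz2: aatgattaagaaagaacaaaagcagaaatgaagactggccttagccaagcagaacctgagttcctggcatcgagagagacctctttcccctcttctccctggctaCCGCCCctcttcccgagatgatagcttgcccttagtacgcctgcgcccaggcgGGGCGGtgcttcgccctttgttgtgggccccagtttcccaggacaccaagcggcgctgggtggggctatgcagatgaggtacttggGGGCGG
Sat1: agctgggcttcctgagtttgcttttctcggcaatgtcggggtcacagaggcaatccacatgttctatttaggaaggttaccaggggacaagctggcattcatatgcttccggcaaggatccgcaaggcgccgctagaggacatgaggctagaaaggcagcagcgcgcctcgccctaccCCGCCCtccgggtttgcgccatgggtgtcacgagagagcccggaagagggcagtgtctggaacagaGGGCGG
Each of the 4 windows, taken from 250 bases before to 50 bases after the start, held a GC box, with 4 matches for Odc1, 6 for Smox, 4 for Oaz2 and 2 for Sat1, all of them inside the printed stretch except 1 each for Odc1 and Oaz2. Of all 32851 windows of the same length in the table, 35.7% held at least 1. The windows were rich in G and C, at 78% for Odc1, 71% for Smox, 61.7% for Oaz2 and 60.3% for Sat1, against a median of 52.7% over all windows. The E-box CACGTG, recognised by MYC-MAX and by MITF, was in none of the 4 windows and in 7.15% of all windows. The AP-1 motif TGANTCA (7.81% of all windows) and the TATA box TATAAA (13.6%) were also in none of them, each searched on both strands. These are matches of letters in a short window, and sites elsewhere in the genes were not searched.

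Both measured synthesis genes rose with NRG1, as did both measured genes of antizyme control, whereas the catabolic pair moved in opposite directions. Of the 6 measured genes 5 rose, where 12.3% of all genes tested were called higher, and 1 fell, where 8.56% were called lower. For all 6 the NRG1 and untreated arrays did not overlap, which was the case for 36.7% of all genes tested (18.6% with NRG1 above and 18.1% with NRG1 below). In the fit of all genes 2461 were called higher and 1707 lower, and after quantile normalization over the tested genes 2257 and 2396, with the 6 polyamine genes called in the same directions. The median change of the 6 genes was 0.73 on the log2 scale, against -0.029 over all genes. Because the members were chosen with earlier results of these data known, these contrasts are no test of the set. With 3 arrays against 3, an exact permutation test of a single gene cannot go below p = 0.1, and each of the 6 genes reached that value.

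**Figure D1:**
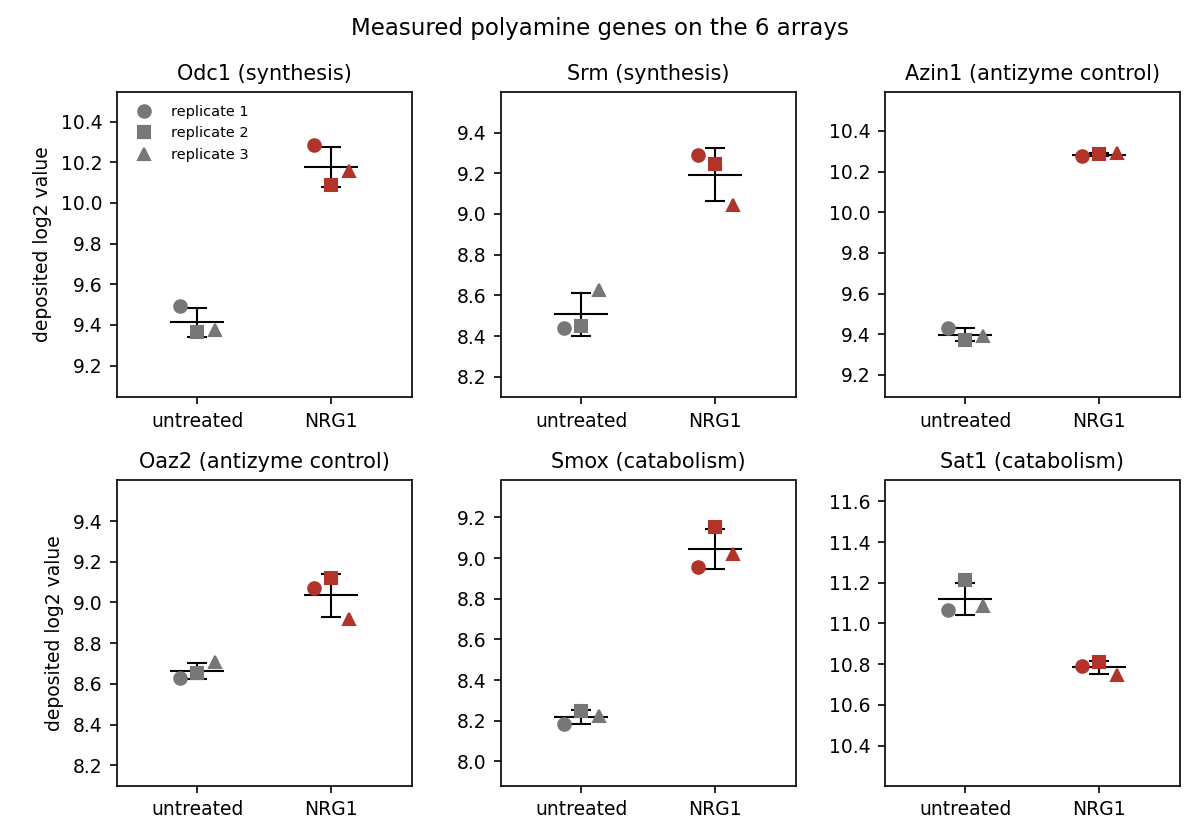
Deposited log2 values (vertical axis, the same span in every panel) of the 6 measured polyamine genes on the 3 untreated and 3 NRG1 arrays; symbols are the replicate numbers, the bar is the group mean and the whiskers are 1 SD (n = 3). The NRG1 arrays lie above the untreated arrays for Odc1, Srm, Azin1, Oaz2 and Smox and below them for Sat1.

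Odc1, which encodes ornithine decarboxylase, the entry enzyme of the pathway, had log2 values of 10.29, 10.09 and 10.16 on the NRG1 arrays and 9.50, 9.37 and 9.38 on the untreated arrays. Every NRG1 array lay above every untreated array, with the nearest pair 0.60 apart. Odc1 rose by 0.76 on the log2 scale, 1.70-fold (95% interval of the log2 change 0.61 to 0.92; limma, adjusted p = 2.96e-05). Its second, dimmer probe set stood at 9.34, 9.22 and 9.29 with NRG1 and 8.54, 8.53 and 8.34 without. That probe set also separated the groups, and gave a rise of 0.81 (0.64 to 0.99; limma over all probe sets, adjusted p = 0.000847). The platform table lists the same accessions for both probe sets of Odc1, and the stretch that each of them covers is not described there, so signal from related copies cannot be told apart.

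Srm encodes spermidine synthase, which turns putrescine into spermidine. Its log2 values were 9.29, 9.25 and 9.05 with NRG1 and 8.44, 8.45 and 8.63 without. The third replicate of each group lay nearest to the other group, and the gap between them was still 0.42. Srm rose 1.61-fold, by 0.69 on the log2 scale (0.50 to 0.87; limma, adjusted p = 0.00017). It had the widest replicate spread of the 6 genes, with SDs of 0.129 with NRG1 and 0.105 without (n = 3 each), and 74.5% of all genes tested had a smaller pooled SD.

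Azin1, the gene of antizyme inhibitor, an ornithine decarboxylase-like protein without that activity, showed the largest change of the 6. Its log2 values were 10.27, 10.28 and 10.29 with NRG1 and 9.43, 9.37 and 9.39 without. The replicates nearly coincided, and the groups were 0.84 apart at their closest. Azin1 rose 1.85-fold, by 0.88 on the log2 scale (0.76 to 1.01; limma, adjusted p = 2.01e-06), and 2.47% of all genes tested changed by more in either direction. Its pooled SD of 0.0224 was also the smallest of the 6, and 1.14% of all genes tested had a smaller one.

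Oaz2, which encodes the second antizyme, rose less. Its log2 values were 9.07, 9.12 and 8.92 with NRG1 and 8.63, 8.65 and 8.71 without. The lowest NRG1 array and the highest untreated array, both the third replicate, were 0.21 apart, the smallest gap of the 6 genes. Oaz2 rose 1.30-fold, by 0.37 on the log2 scale (0.22 to 0.53; limma, adjusted p = 0.0031). The interval of Oaz2 lay wholly below that of Azin1, the inhibitor of antizymes.

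The catabolic enzyme gene Smox rose. Smox encodes spermine oxidase, which converts spermine back to spermidine and releases hydrogen peroxide. Its log2 values were 8.96, 9.15 and 9.02 with NRG1 and 8.18, 8.25 and 8.22 without. The untreated arrays lay close together and the NRG1 arrays were more spread, with 0.71 between the groups. Smox rose 1.77-fold, by 0.82 on the log2 scale (0.67 to 0.97; limma, adjusted p = 1.19e-05), and 2.83% of all genes tested changed by more.

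Sat1 encodes the acetyltransferase that marks spermidine and spermine for export or oxidation, and it was the measured polyamine gene that fell. Its log2 values were 10.79, 10.81 and 10.75 with NRG1 and 11.07, 11.21 and 11.08 without. The second untreated replicate was the highest, and the other 2 untreated arrays were still 0.255 or more above every NRG1 array. Sat1 fell by 0.34 on the log2 scale, which is 1.26-fold lower (interval -0.48 to -0.20; limma, adjusted p = 0.00345). A larger change in either direction was measured for 11.6% of all genes tested, against 3.21% for Odc1 and 3.88% for Srm.

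**Figure D2:**
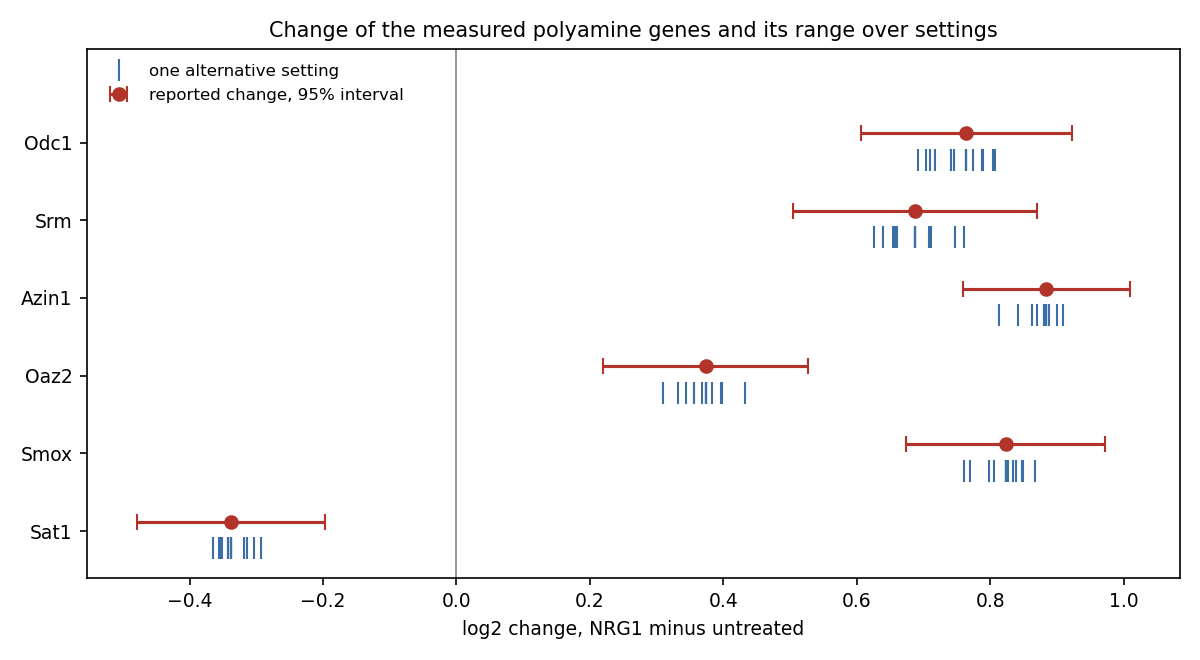
Log2 change, NRG1 minus untreated (horizontal axis), of the 6 measured polyamine genes; red points and whiskers give the reported change with its 95% limma interval, and each blue tick is the change under 1 of 15 alternative settings. All ticks stay on the side of 0 of the reported change, from 0.31 to 0.43 for Oaz2 and from -0.37 to -0.29 for Sat1.

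Changes were also compared between genes within arrays. Within an array, the log2 difference between Azin1 and Oaz2 was 0.51 larger with NRG1 than without, and the groups did not overlap (exact permutation p = 0.1, adjusted 0.167 over 5 such pairs, chosen after the values were seen). Odc1 minus Sat1 was 1.10 higher with NRG1 and Smox minus Sat1 1.16 higher. Each had p = 0.1, the smallest value the same exact test can give (adjusted 0.167). Sat1 had the higher signal in both groups, so the signals of Odc1 and Smox came closer to that of Sat1 with NRG1. Whether signals of different probe sets rank the transcript amounts was not tested. Azin1 minus Odc1 changed by 0.12 and Srm minus Odc1 by -0.077, with overlapping groups (exact permutation p = 0.3 and 0.6, adjusted 0.375 and 0.6). With 3 arrays per group, the exact permutation test could not reach the 0.05 threshold for any of the 5 pairs. It therefore could not decide whether the genes of a pair differed in response. Odc1 and Smox rose and Sat1 fell without overlap, so the separation of their differences from Sat1 was fixed beforehand. The separation of Azin1 minus Oaz2 likewise followed from the values of the single genes given above.

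The genes around the pathway were followed in 7 lists holding 49 measured genes of 55. Of these 49, 7 rose and 8 fell, together 30.6%, where 20.9% of all genes tested were called. Their median change was -0.022, close to the -0.029 of all genes. The number that rose was 4 without NRG1 replicate 1, without untreated replicate 1 and without untreated replicate 3, with 8 that fell in each of these fits. The split of 7 and 8 depended on the setting, with 5 higher and 12 lower after quantile normalization over the tested genes.

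**Figure D3:**
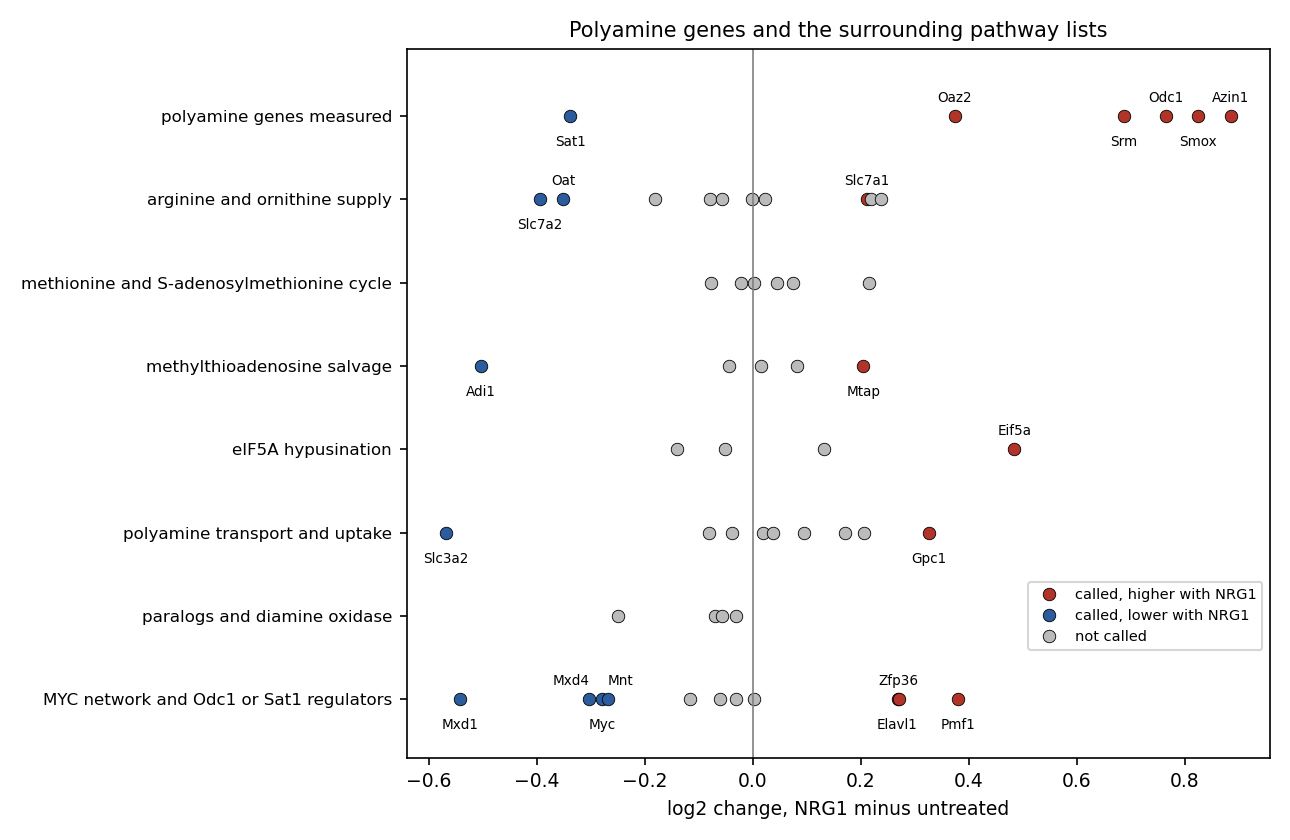
Log2 change, NRG1 minus untreated (horizontal axis), of the 6 measured polyamine genes and of 49 genes in 7 surrounding lists, 1 point per gene; red and blue points were called higher and lower with NRG1 by limma and are labelled, grey points were not called. The largest rise among the neighbours, Eif5a at 0.48, is smaller than the changes of Srm, Odc1, Smox and Azin1.

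Of 10 measured genes of arginine and ornithine supply or use, 1 rose and 2 fell, together 30%, against 20.9% of all genes tested. Oat, whose product removes ornithine by transamination, had values of 10.09, 10.02 and 10.10 with NRG1 and 10.34, 10.53 and 10.39 without. All NRG1 arrays were lower, and Oat fell by 0.35 (limma, adjusted p = 0.00388). Slc7a1, a transporter of arginine and other cationic amino acids, rose by 0.21 (limma, adjusted p = 0.0223). Slc7a1 no longer passed without NRG1 replicate 1 (adjusted p = 0.0676), 2 (0.0775) or 3 (0.0593) or without untreated replicate 1 (0.0861), and its 15 settings spanned 0.00299 to 0.0967. The related transporter gene Slc7a2, with group means of 5.68 and 6.08 below the array medians, fell by 0.39 (limma, adjusted p = 0.0262). That call ended without NRG1 replicate 1 (adjusted p = 0.0899) or 3 (0.0621), without untreated replicate 3 (0.0819) and with all probe sets tested (0.0856), with 0.013 as the lowest value of its 14 settings. The arginase genes Arg1 and Arg2 were not called, at 0.022 and 0.24.

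S-adenosylmethionine provides the aminopropyl groups of spermidine and spermine. None of the 6 measured genes of the methionine cycle was called by limma. An unadjusted p under 0.05 was found for 6378 of all 19938 genes tested and for 1 of these 6. This was Mtr, methionine synthase, at 0.21 (limma, adjusted p = 0.0557). Mtr passed in 4 of 15 settings (adjusted p from 0.00546 to 0.189), among them the fit without untreated replicate 2 (0.28, adjusted p = 0.00989). Methylthioadenosine is the by-product of both aminopropyl transfers. Of 5 genes that salvage it to methionine 1 rose and 1 fell, where 20.9% of all genes tested were called. Adi1, an acireductone dioxygenase late in the salvage route, had values of 8.77, 8.88 and 8.81 with NRG1 and 9.29, 9.41 and 9.26 without. The groups were well apart and Adi1 fell by 0.50 (limma, adjusted p = 0.000288). Mtap, the phosphorylase that starts the salvage, rose by 0.20 (limma, adjusted p = 0.038). The Mtap call ended in 8 of 15 settings, among them the fits without NRG1 replicate 1 (adjusted p = 0.109) or 3 (0.135) and without untreated replicate 1 (0.0849) or 3 (0.109), and its lowest value was 0.00829.

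Spermidine is also the donor of hypusine, a modified lysine found in the translation factor eIF5A. Eif5a itself stood at 10.58, 10.59 and 10.81 with NRG1 and 10.20, 10.21 and 10.12 without. The third NRG1 replicate was the highest, and all NRG1 arrays exceeded the untreated ones. Eif5a rose by 0.48, 1.40-fold (limma, adjusted p = 0.000955). With the mean of its probe sets in place of the brightest, the rise was 0.435 (limma, adjusted p = 0.000838). The genes of the enzymes that make hypusine, Dhps and Dohh, were not called, at -0.14 and -0.052, and neither was Eif5a2 at 0.13.

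Of 9 measured genes of polyamine transport and uptake, 1 rose and 1 fell, together 22.2%, close to the 20.9% of all genes tested. Slc3a2, the heavy chain shared by several amino acid transporters and linked to polyamine export, had values of 12.07, 12.14 and 12.10 with NRG1 and 12.63, 12.71 and 12.67 without. The replicates were tight, and Slc3a2 fell by 0.57 (limma, adjusted p = 5.89e-05). Gpc1, a heparan sulfate proteoglycan implicated in polyamine uptake, stood at 11.12, 11.13 and 11.03 with NRG1 and 10.75, 10.81 and 10.74 without, and rose by 0.33 (limma, adjusted p = 0.00286). The polyamine pump genes Atp13a2 and Atp13a3 were not called, at 0.037 and 0.095. Among the 4 measured paralogs, a list that also holds the diamine oxidase gene Aoc1, none was called by limma. Where 6378 of all 19938 genes tested had an unadjusted p under 0.05, 1 of these 4 did. This was Sat2, at -0.25 (adjusted p = 0.0604), and 7 of its 15 settings passed (adjusted p from 0.0108 to 0.206). Without NRG1 replicate 1 Sat2 was at -0.32 (limma, adjusted p = 0.0288) and without untreated replicate 3 at -0.31 (adjusted p = 0.0452). Azin2 and Oaz3, the relatives of Azin1 and Oaz2, were at -0.031 and -0.058.

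Of 11 measured genes of the MYC network and other regulators of Odc1 or Sat1, 3 rose and 4 fell. Of all genes tested, 12.3% were called higher and 8.56% lower. Myc had values of 9.15, 9.14 and 9.06 with NRG1 and 9.36, 9.50 and 9.33 without. All NRG1 arrays were lower, and Myc fell by 0.28 (limma, adjusted p = 0.0141), while Odc1 and Srm rose. Without NRG1 replicate 3 Myc missed the threshold (-0.25, adjusted p = 0.0611), the highest of 15 settings that began at 0.00141. MYC protein was not measured, and a link between Myc and these genes was not tested. Of the genes whose products compete with MYC for MAX or its sites, Mxd1 fell by 0.54 (limma, adjusted p = 0.000265), Mxd4 by 0.30 (adjusted p = 0.0043) and Mnt by 0.27 (adjusted p = 0.00727). Max was not called, at -0.031, and neither were Mxi1 at -0.12 and Mycn at 0.0022.

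Both RNA-binding protein genes of that list rose. Elavl1, whose product HuR stabilises many short-lived transcripts, rose by 0.27 (limma, adjusted p = 0.0151). Elavl1 missed the threshold when NRG1 replicate 1 (adjusted p = 0.0619) or untreated replicate 3 (0.0534) was left out, with 0.000824 as the lowest of its 15 settings. Zfp36, whose product tristetraprolin destabilises AU-rich transcripts, rose by 0.27 (limma, adjusted p = 0.0342). The Zfp36 call ended in 8 of 15 settings, including those without NRG1 replicate 1 (adjusted p = 0.0692) or 2 (0.12) and without untreated replicate 1 (0.0508), 2 (0.0873) or 3 (0.0798), with 0.0116 as the lowest value. Pmf1, a kinetochore protein also described as a polyamine-responsive cofactor of Sat1 transcription, had values of 7.50, 7.17 and 7.38 with NRG1 and 6.94, 7.01 and 6.96 without. The NRG1 arrays were more spread and all higher, and Pmf1 rose by 0.38 (limma, adjusted p = 0.00843) while Sat1 fell. Nfe2l2, the gene of the stress factor NRF2, was not called, at -0.061.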

How the data were processed

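RNA from 3 NRG1-treated and 3 untreated Melan-Ink4a samples was hybridised to 1-colour arrays, using 200 ng per array, per the labels. The authors deposited log2 values. The submitters' processing notes name RMA and GCOS, without versions or settings, and the scale was inferred from the range of 2.34 to 14.6. Array signals are compressed near background and saturation, which can understate changes. Arrays have no read depth, and 3 per group limit the precision (median SE of a change 0.0708).

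Gene names came from the platform's probe table and were updated by gene number to RefSeq GRCm38.p6: 21789 of 35557 named 1 gene, 1621 several and 12147 were unnamed here. The brightest probe set was kept for each of 19938 genes, with no filter on level. limma 3.58.1 (R 4.3.3; lmFit, eBayes, 2-sided) was fitted on all of them and tested on simulated data. Named genes were the measured members, the melanocyte markers, Myc and, per list, up to 4 called genes in each direction or else the gene with the smallest p; other genes were chosen after their values were seen. The members and lists were chosen with earlier results of these data known. Alternatives covered normalization, filtering, probe-set choice, variance prior, weighting of arrays, a replicate block and leaving out each array.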

Additional observations from a re-analysis of the deposited data

How the results depend on the processing

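All 6 measured polyamine genes kept their direction and their call under all 15 alternatives, with log2 changes from 0.69 to 0.81 for Odc1, 0.63 to 0.76 for Srm, 0.81 to 0.91 for Azin1, 0.31 to 0.43 for Oaz2, 0.76 to 0.87 for Smox and -0.37 to -0.29 for Sat1. The highest adjusted p (limma) among them was 0.0185, for Sat1. Of the 17 named neighbour genes, 9 stayed on the same side of the threshold throughout and none changed direction. Slc7a2 gave no value in the fit without the dimmest genes, to which it belongs. The number of neighbour genes that rose, 7 in the reported fit, was 4 with the replicate block and ran from 4 to 7 without single arrays and from 4 to 10 over all 15 alternatives (10 with array weights), while the number that fell, 8 in the reported fit, ran from 6 to 12. Over all genes tested, array weights called 2881 lower against 1707, and the cause was not tested, as it was not for the neighbour count. Quantile normalization over the tested genes only, chosen after seeing the data, took the share of rises among called genes from 59% to 48.5% (2257 higher, 2396 lower). Whether the replicate numbers pair the samples could not be settled from the values, because the deviations within a group cancel out. Deviations of same-numbered arrays correlated at -0.095, -0.16 and 0.074, and those of differently numbered arrays at -0.20 to 0.25. The block moved the count of calls from 4168 to 3609. Array number, and compressed signal at low levels such as those of Slc7a2, limit what smaller changes can be seen.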
